A study of Mus musculus with 6 samples.

Results

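The RAS-MAPK feedback genes are 10 genes that the ERK kinases switch on and whose products, for the most part, restrain the same pathway. They were chosen by name: the dual-specificity phosphatase genes Dusp4, Dusp5 and Dusp6, the Sprouty genes Spry1, Spry2 and Spry4, the Spred genes Spred1 and Spred2, and the ETS factor genes Etv4 and Etv5. Each symbol matched 1 row of the 55334 in the count table, and all 10 were among the 16049 genes with enough counts to test. The cells were a mouse lung cancer line, Lewis lung carcinoma, labelled with GFP and carrying either a scramble control (Scramble) or a guide against the Notch ligand gene Jag2 (JAG2KO). Tumours grown in the flanks of mice were dissociated at endpoint, GFP-positive, CD45-negative and DAPI-negative cells were sorted, and polyA RNA was sequenced in 3 libraries per group. The labels give no age, strain or sex of the mice, and they do not say whether the JAG2KO cells were a clone or a pool, or whether each library came from its own mouse. The p-values therefore rest on the spread between these libraries, which may be technical. Those of the gene-wise test also borrow information on variance across genes. In sorted bulk RNA, fewer cells of a type and less RNA per cell cannot be told apart.

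Growth factor receptors load RAS with GTP, RAS activates the RAF kinases, and RAF passes the signal through MEK to ERK. Active ERK phosphorylates transcription factors of the ETS, AP-1 and SRF-partner classes, and among the genes these induce are the pathway's own brakes. In lung tumours driven through RAS, RAF or a receptor kinase, transcripts of this kind are widely used as a readout of pathway output, although RNA levels do not measure ERK phosphorylation itself.

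In JAG2KO tumour cells 7 of the 10 feedback genes were lower, 1 was higher and 2 did not pass the threshold (edgeR quasi-likelihood test, adjusted p under 0.05). Across all tested genes 12.5% were lower, 11.8% were higher and 24.3% were called in either direction. The feedback genes were chosen with earlier results of these data known, so this comparison is descriptive only. Dusp6, Spry4, Spry1, Dusp4, Etv4, Spred1 and Etv5 fell, Spry2 rose, and Dusp5 and Spred2 were not called. The median log2 fold change of the 10 genes was -0.36, beside 0.0018 for all tested genes. The CPM values of the groups did not overlap for 8 of the 10 genes, where this held for 40.3% of all tested genes. Values below are read counts scaled to TMM-adjusted library size (CPM), and errors are SDs over 3 libraries.

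**Figure D1:**
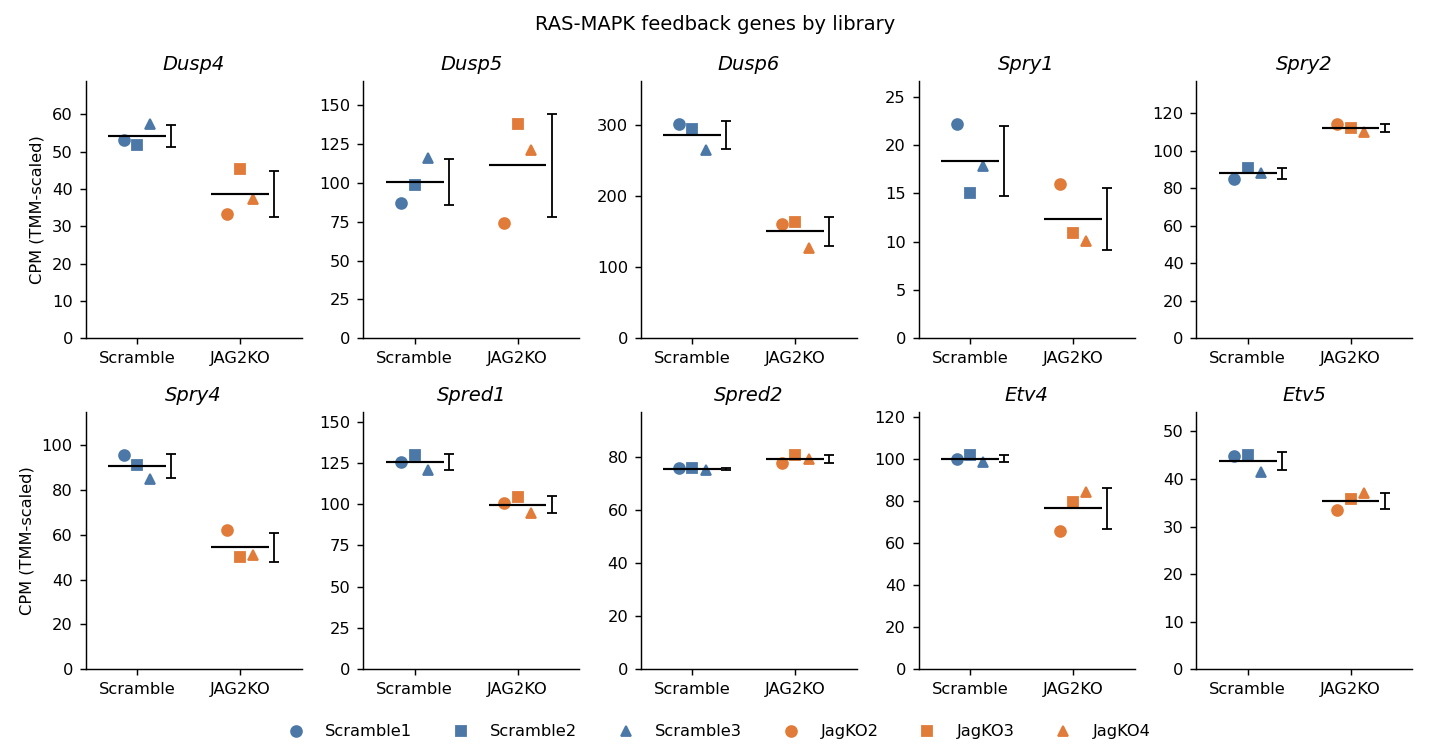
CPM of each feedback gene in the 3 Scramble libraries (blue) and the 3 JAG2KO libraries (orange), with the group mean as a line and the SD as a bar. The groups are apart for 8 genes and overlap for Dusp5 and Spry1.

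Libraries held 37036772 to 43923565 counts, so that 3 counts corresponded to 0.068 to 0.0811 CPM, far under every feedback gene. Jag2 itself, which had 19 to 67 counts per library, was not called (log2 fold change -0.58, edgeR adjusted p = 0.318). An edited gene can still be transcribed, so this level does not check the labels. Markers of other cell types were detected, but only 3 of 10 T and NK cell markers and 2 of 8 neutrophil markers had enough counts to test. No marker list had a gene at 0 in all 6 libraries, though some T and NK cell and neutrophil markers stayed under 3 counts in every library. Ptprc, which encodes the CD45 used to exclude blood cells, had 2.15 CPM in Scramble and 2.92 CPM in JAG2KO on average. The 14 macrophage markers summed to 65.4 to 75.2 CPM in Scramble and 98.2 to 119.7 CPM in JAG2KO, with 4 called higher and 1 lower. The 12 fibroblast and pericyte markers summed to 4435 to 4781 CPM in Scramble and 5757 to 8827 CPM in JAG2KO, with 6 called higher and 1 lower. Most of that sum was Col3a1, and it was highest in JagKO2, at 8827 CPM. The other 11 markers of the list summed to 923.5 to 1090 CPM in Scramble and 1095 to 1606 CPM in JAG2KO, close to overlap. Of the 12 endothelial markers 6 were called higher and 1 lower. The lower one, Eng, made up most of their sum and had 98.0 to 104.4 CPM in Scramble and 63.4 to 85.2 CPM in JAG2KO. The other 11 summed to 32.0 to 35.6 CPM in Scramble and 50.6 to 65.1 CPM in JAG2KO, without overlap, whereas the sum with Eng overlapped (133.6 to 136.4 and 122.3 to 144.5 CPM). T and NK cell markers reached at most 3.27 CPM in sum and neutrophil markers at most 3.54 CPM. Which cells gave these transcripts was not tested, nor was their part in the results on the feedback genes.

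RefSeq start sites on GRCm38.p6 were listed for 7 of the 10 genes, in 8 windows. The 4 stretches upstream of these sites are shown because they belong to the gene that fell most (Dusp6), its relative that was not called (Dusp5), and Sprouty relatives that moved in opposite directions (Spry1 and Spry2). They run 5′ to 3′ on the gene's strand, and capitals mark matches on either strand to the 8 motifs given after them. The Dusp5 stretch stops at the gene start in the annotation, short of the RefSeq start.
Dusp6 (chr10:99262981-99263230, plus strand): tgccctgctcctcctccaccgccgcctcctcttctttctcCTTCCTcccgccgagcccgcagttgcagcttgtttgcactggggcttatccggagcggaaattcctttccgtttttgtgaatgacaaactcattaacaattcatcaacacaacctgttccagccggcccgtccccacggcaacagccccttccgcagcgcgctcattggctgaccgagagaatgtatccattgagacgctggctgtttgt
Dusp5 (chr19:53528895-53529108, plus strand): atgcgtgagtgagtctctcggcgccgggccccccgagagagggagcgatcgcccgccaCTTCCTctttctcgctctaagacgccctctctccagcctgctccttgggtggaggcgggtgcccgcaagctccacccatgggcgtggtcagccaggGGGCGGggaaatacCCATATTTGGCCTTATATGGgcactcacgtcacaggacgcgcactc
Spry1 (chr3:37639697-37639946, plus strand): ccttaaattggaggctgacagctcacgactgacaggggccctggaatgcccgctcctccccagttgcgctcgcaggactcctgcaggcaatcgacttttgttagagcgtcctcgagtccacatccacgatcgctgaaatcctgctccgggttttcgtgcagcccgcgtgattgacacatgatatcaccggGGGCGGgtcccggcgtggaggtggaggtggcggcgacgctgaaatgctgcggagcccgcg
Spry2 (chr14:105896820-105897069, minus strand): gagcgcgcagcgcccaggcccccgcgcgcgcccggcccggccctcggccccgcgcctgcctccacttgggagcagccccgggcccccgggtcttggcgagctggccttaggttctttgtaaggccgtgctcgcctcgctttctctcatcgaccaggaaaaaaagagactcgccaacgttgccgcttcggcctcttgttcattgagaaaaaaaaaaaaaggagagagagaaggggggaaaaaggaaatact

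The motifs searched in the 250 bases before each start were the ETS motif CCGGAA, the PEA3-type ETS motif AGGAAG, the AP-1 motif TGANTCA, the CREB motif TGACGTCA, the CArG box of SRF, the TATA box as TATAAA, the motif TGGGAA of the Notch effector RBPJ, and the SP1 motif GGGCGG. Both strands were searched. None of these motifs contains another, though the ETS and RBPJ motifs share the letters GGAA. Dusp5 held a pair of adjoining CArG boxes, 82 to 73 and 72 to 63 bases before the RefSeq start, and it was the only one of the 7 genes with this motif in the window, which 1.47% of all 32851 promoter windows held. AGGAAG was present in the windows of Dusp5, Dusp6 and Spred2 (3 of 8, where 29.5% of all windows held it), in Dusp6 on the opposite strand 210 to 205 bases before the start. GGGCGG was present in 5 of the 8 windows and in 32.7% of all. TGGGAA was present in an Etv5 window and in that of Spred2, and in 21.6% of all. The CCGGAA, AP-1, CREB and TATA box motifs were in 0 of the 8 windows, where 12.0%, 6.75%, 1.55% and 12.4% of all windows held them. The Spry2 window matched 0 of the 8 motifs. A match describes letters and not a bound site, and these windows leave out introns and distant elements.

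Dusp6 had the largest change of the 10 feedback genes. Its product is a cytoplasmic phosphatase that acts on ERK. Dusp6 (chromosome 10, 99263231 to 99267489 in GENCODE M21 on GRCm38, as for all positions below) measured 302.1, 294.4 and 264.8 CPM in Scramble replicates 1, 2 and 3 and 161.0, 163.5 and 127.5 CPM in JagKO2, JagKO3 and JagKO4. Every JAG2KO library was below every Scramble library, and the JAG2KO mean was 52.5% of the Scramble mean. On the log2 scale this was -0.93 ± 0.09 (fold change and SE, edgeR adjusted p = 2.55e-05), which placed it at rank 256 of 16049 by p and 1780 by size of change.

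Dusp4 encodes a nuclear phosphatase of ERK and related kinases. This gene on chromosome 8 (34807297 to 34819894) measured 53.2, 51.9 and 57.5 CPM in Scramble, against 33.4, 45.5 and 37.4 CPM in JAG2KO. The groups did not overlap, and JagKO3 lay nearest to Scramble. On the log2 scale this was -0.48 ± 0.10 (fold change and SE, edgeR adjusted p = 0.00563).

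Dusp5, which encodes a nuclear phosphatase selective for ERK, was not called, unlike the other phosphatase genes. On chromosome 19 (53529109 to 53542431) it measured 87.2, 98.3 and 116.3 CPM in Scramble, against 74.2, 137.9 and 121.5 CPM in JAG2KO. JagKO2 was the lowest of all 6 libraries and the others of its group the highest. On the log2 scale this was 0.14 ± 0.18 (fold change and SE, edgeR adjusted p = 0.605), with a 95% interval from -0.24 to 0.53. Without JagKO2 Dusp5 was called higher (log2 fold change 0.37, edgeR adjusted p = 0.0129), and without JagKO3 the sign turned (-0.04, adjusted p = 0.911). Over all 12 alternative settings its adjusted p ran from 0.0129 to 0.911. JagKO2 was also the library with the highest sum of fibroblast and pericyte markers, at 8827 CPM, most of it Col3a1. Ier3 and Phlda1, the called genes among the other ERK-induced genes below, were also lowest of their group in JagKO2. Ier3 had 287.6, 498.6 and 450.6 CPM in JagKO2, JagKO3 and JagKO4, and Phlda1 142.5, 208.5 and 222.0 CPM. The genes of that list that were not called did not all share this order. Whether any of this bears on Dusp5 was not tested. Exons of Dusp5 share 547 bases with an opposite-strand gene model, AC137853.2, which had 0.252 CPM in Scramble, against 0.28 CPM in JAG2KO.

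The Sprouty genes split. Their products dampen receptor signalling between the receptor and RAF. Spry4 (chromosome 18, 38586247 to 38601415) measured 95.7, 91.2 and 84.9 CPM in Scramble, against 62.0, 50.2 and 51.0 CPM in JAG2KO. All JAG2KO values were below all Scramble values, at 60.0% of the mean, which was -0.74 ± 0.09 as log2 fold change and SE (edgeR adjusted p = 0.000103).

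Spry2 was the 1 feedback gene that rose. On chromosome 14 (105891947 to 105896819) it measured 85.1, 91.1 and 88.1 CPM in Scramble, against 114.4, 112.3 and 110.1 CPM in JAG2KO. The groups stood apart with little spread inside each (SDs of 2.99 and 2.15 CPM), and the JAG2KO mean was 127.5% of the Scramble mean. On the log2 scale this was 0.35 ± 0.06 (fold change and SE, edgeR adjusted p = 0.00134).

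Spry1, on chromosome 3 (37639947 to 37644598), was the least abundant feedback gene per length. It measured 22.2, 14.98 and 17.9 CPM in Scramble, against 16.0, 10.9 and 10.1 CPM in JAG2KO, so that JagKO2 lay above Scramble replicate 2. On the log2 scale this was -0.57 ± 0.18 (fold change and SE, edgeR adjusted p = 0.0395), the weakest call of the 8. It was lost without Scramble replicate 1, Scramble replicate 3, JagKO3 or JagKO4 (adjusted p = 0.0777 to 0.189). Over all alternatives the adjusted p ran from 0.000231 to 0.189. Spry1 exons share 710 bases with an opposite-strand model, Gm42922, which had 0.0378 CPM in Scramble, against 0.0343 CPM in JAG2KO.

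Spred proteins bring neurofibromin, a GTPase activator of RAS, to the plasma membrane. Spred1 (chromosome 2, 117121374 to 117182279) measured 125.7, 129.9 and 120.5 CPM in Scramble, against 100.8, 104.2 and 94.4 CPM in JAG2KO. The groups did not overlap, and the gene fell by 0.33 on the log2 scale (SE 0.06, edgeR adjusted p = 0.00294). Spred2 (chromosome 11, 19924375 to 20024026) measured 75.8, 75.6 and 75.1 CPM in Scramble, against 77.8, 80.7 and 79.1 CPM in JAG2KO. Its groups also stood apart, but the difference of 0.07 on the log2 scale did not pass the test (SE 0.06, edgeR adjusted p = 0.451). The 95% interval ran from -0.06 to 0.20.

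Etv4 and Etv5 encode PEA3-type ETS factors, which carry ERK signals into transcription and are outputs of the pathway more than brakes on it. Etv4 (chromosome 11, 101769742 to 101785371) measured 100.01, 102.0 and 98.4 CPM in Scramble, against 65.6, 79.7 and 84.2 CPM in JAG2KO. All JAG2KO libraries were lower, with a wider spread among them (SD 9.69 CPM) than among Scramble libraries (SD 1.79 CPM). On the log2 scale this was -0.39 ± 0.09 (fold change and SE, edgeR adjusted p = 0.00635). Etv5 (chromosome 16, 22381309 to 22439719) measured 44.8, 45.1 and 41.5 CPM in Scramble, against 33.5, 35.7 and 36.96 CPM in JAG2KO. The groups did not overlap, and the change of -0.31 in log2 had an SE of 0.08 (edgeR adjusted p = 0.0134). The Etv5 call was lost when replicate 1 or 2 of Scramble was left out (adjusted p = 0.0635 and 0.0659, range over all alternatives 0.00606 to 0.0659).

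**Figure D2:**
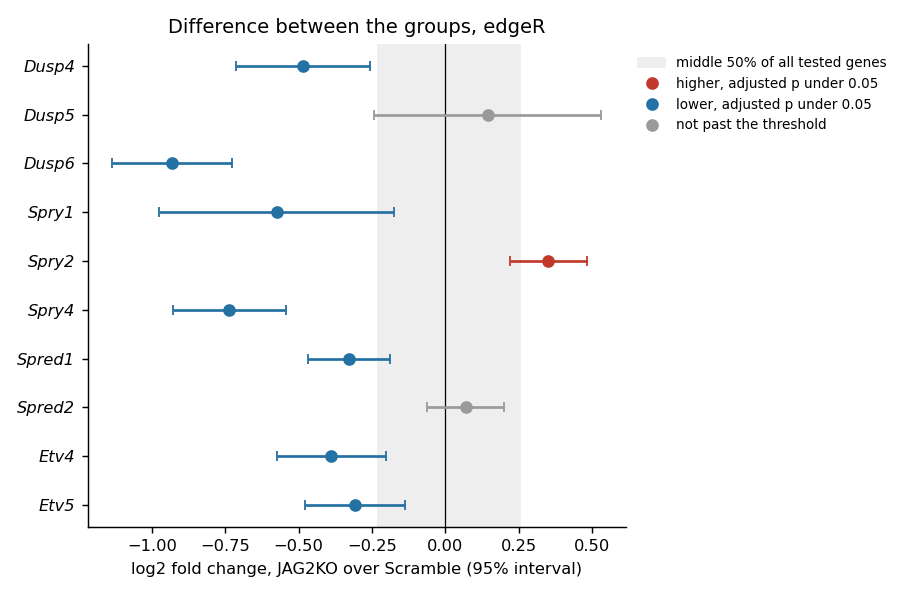
Log2 fold change of each feedback gene, JAG2KO over Scramble, with its 95% interval from the edgeR fit. The grey band holds the middle 50% of all tested genes (-0.23 to 0.26), and the 7 genes that fell lie to its left.

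Within groups the libraries did not order the feedback genes alike. In JAG2KO, JagKO2 had the lowest value for 5 of the 10 genes (Dusp4, Dusp5, Spred2, Etv4 and Etv5) and the highest for 3 (Spry1, Spry2 and Spry4). JagKO3 was highest for 5 genes and lowest for 1. In Scramble, replicate 3 was lowest for 6 genes and highest for 2.

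Levels were compared between genes after division by the length of all annotated exons and scaling to the same total in each library (TPM). In Scramble, Dusp6 was the most abundant feedback transcript at 308.5 ± 22.0 TPM, followed by Spry2 at 142.0 ± 4.81 TPM and Dusp5 at 136.9 ± 19.6 TPM. Spry2 and Dusp5 overlapped in their library ranges. Etv4 came next at 108.5 ± 2.20 TPM, and Dusp4, Spry4 and Spred1 formed a group with overlapping neighbours from 66.5 ± 3.39 to 62.2 ± 2.50 TPM. Spred2 (55.0 ± 0.41 TPM), Etv5 (35.9 ± 1.71 TPM) and Spry1 (21.2 ± 4.21 TPM) were lowest and apart from each other. In JAG2KO, Spry2 stood above Dusp6, at 184.8 ± 3.64 TPM against 165.3 ± 22.2 TPM. Their libraries did not overlap, but the lowest Spry2 value (181.1 TPM) was close to the highest Dusp6 value (179.5 TPM). Dusp5 (154.4 ± 46.0 TPM) ran from 103.0 to 191.7 TPM and overlapped both Dusp6 and Spry2. The lowest levels were again those of Etv5 (29.6 ± 1.47 TPM) and Spry1 (14.6 ± 3.80 TPM).

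Whether relatives changed unequally was asked with log2 ratios of their CPM (plus 0.5) within each library, in which library scaling largely cancels. In 8 pairs, 3 libraries against 3 allow no p under 0.1 in an exact two-sided permutation test, so no pair could pass 0.05. Spry2 over Spry4 was -0.17, -0.0018 and 0.05 in Scramble replicates 1, 2 and 3 and 0.88, 1.155 and 1.103 in JagKO2, JagKO3 and JagKO4. The mean of this ratio moved by 1.08, with no overlap (exact permutation p = 0.1, adjusted over the 8 pairs 0.16). The mean ratio was -0.04 ± 0.12 in Scramble and 1.05 ± 0.15 in JAG2KO. Dusp5 over Dusp6 moved by 1.04, from -1.79, -1.58 and -1.18 to -1.11, -0.24 and -0.07, and JagKO2 lay closest to Scramble (exact permutation p = 0.1, adjusted 0.16). Spry1 over Spry2 moved by -0.91, Dusp4 over Dusp5 by -0.59 and Spred1 over Spred2 by -0.40, each without overlap and each with the same exact permutation p of 0.1 (adjusted 0.16). Dusp4 over Dusp6 moved by 0.45 (exact permutation p = 0.2), Spry1 over Spry4 by 0.17 (p = 0.5) and Etv4 over Etv5 by -0.09 (p = 0.4), and in these 3 pairs the groups overlapped.

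**Figure D3:**
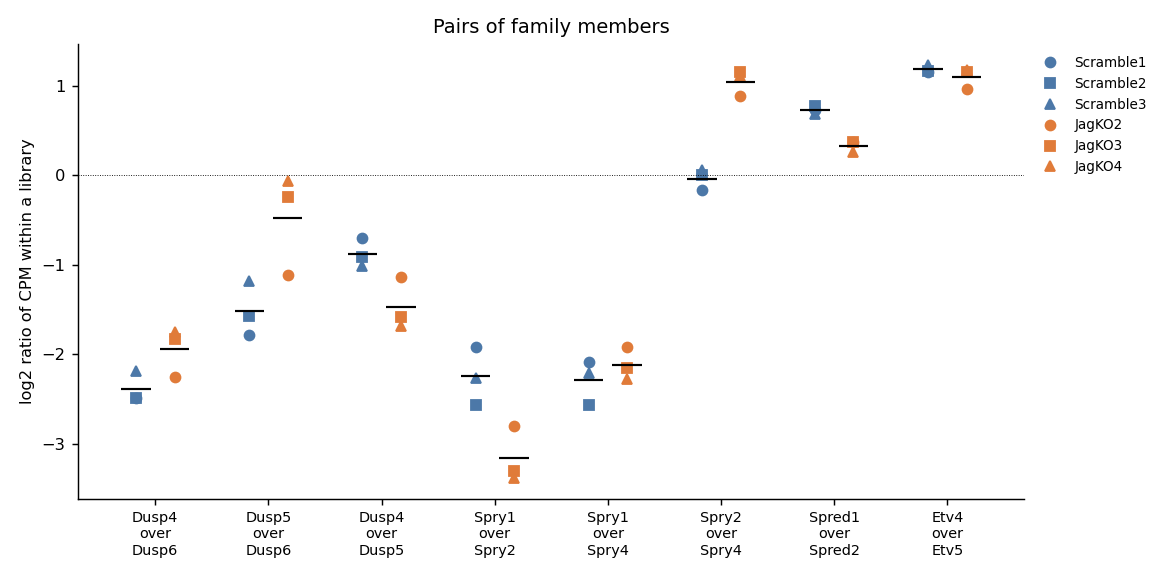
Log2 ratio of CPM between 2 members of a family within each library, for 8 pairs, with group means as lines. Scramble (blue) and JAG2KO (orange) are apart for 5 pairs, with the widest shift of 1.08 for Spry2 over Spry4.

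Calls were uneven between chromosomes among genes with a mean of at least 2 CPM. On chromosome 3, where Spry1 lies, 189 of 580 other such genes were higher and 29 lower. On chromosome 19, where Dusp5 lies, 31 of 417 were higher and 129 lower. Over all tested genes, without this limit on CPM, 11.8% were higher and 12.5% lower. Each feedback gene was therefore set beside its 7 nearest neighbours on either side with a mean of at least 2 CPM. Spry1 fell by 0.57 on the log2 scale in a stretch of chromosome 3 where 1 of 14 neighbours rose and their median was 0.18, and it lay below all 14. Spry4 lay below all 14 of its neighbours (median 0.11) and Dusp6 below 13 of 14 (median -0.04). Etv4 likewise lay below 13 of 14, whose median was 0.05. Among the feedback genes that fell, the neighbours' medians were most negative for Spred1, Etv5 and Dusp4. Dusp4 was 0.38 below its neighbours' median of -0.11, with 4 of the 14 below it, and 5 of the 14 fell. Around Spred1 5 of 14 genes fell, with a median of -0.26 against -0.33 for Spred1, and 6 of the 14 lay below it. Around Etv5 6 of 14 fell, with a median of -0.23 against -0.31 for Etv5, and 3 of the 14 lay below it. Whether any feedback gene differed from its neighbours was not tested. Spry2 was above 12 of 14 neighbours (median 0.05, with 3 called higher), and Dusp5 was above 12 of 14, while 6 of the 14 fell. Spred2 was above 5 of 14 neighbours (median 0.14).

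**Figure D4:**
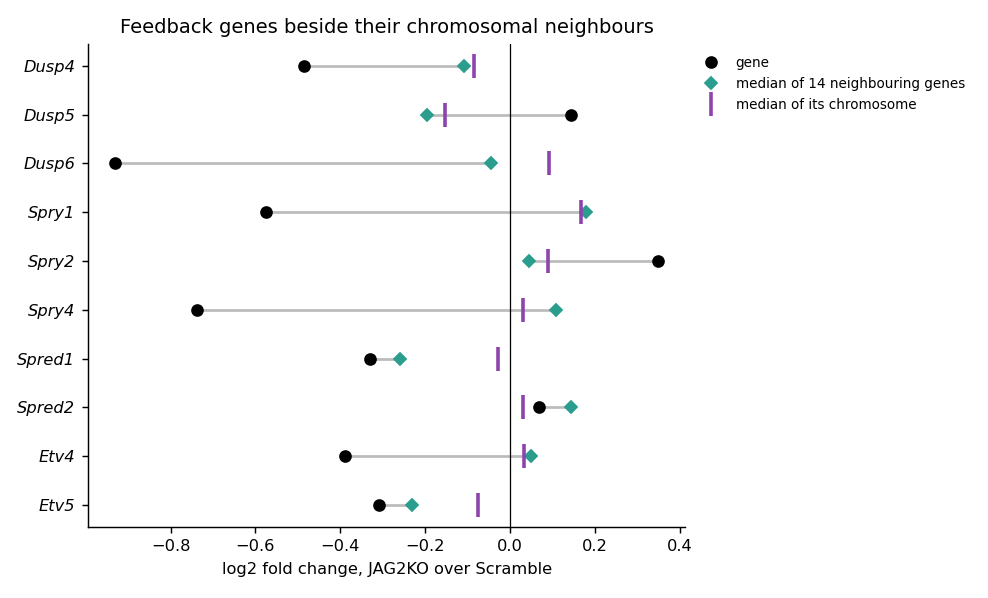
Log2 fold change of each feedback gene (black) beside the median of its 14 nearest expressed neighbours (green) and of its chromosome (purple bar). Both medians are over genes with a mean of at least 2 CPM. Spred1 and Etv5 lie within 0.08 of their neighbours' medians, as does Spred2, and Dusp6 and Spry4 lie 0.89 and 0.85 below theirs.

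The rest of the pathway was read from 7 lists of 140 genes, of which 122 were tested. Of these 24 were higher, 16 lower and 82 not past the threshold, with a median log2 fold change of 0.06. The higher calls were 19.7% of the genes tested in these lists, beside 11.8% over all genes. The lower calls were 13.1%, beside 12.5%. These lists were also chosen with earlier results of these data known. The count of lower genes was 10 without Scramble replicate 2 and also without JagKO4. Among receptor ligands 5 of 27 tested genes were higher and 4 lower (median 0.39). Csf1, the macrophage growth factor gene, rose from 761.8 ± 76.2 to 1237 ± 358 CPM, and the PDGF gene Pdgfc from 56.6 ± 0.526 to 77.9 ± 6.56 CPM. For Csf1 the JagKO2 value of 849.1 CPM was close to the highest Scramble value of 826.1 CPM. Fgf7, whose product signals to epithelial FGF receptors, fell from 61.0 ± 1.67 to 39.1 ± 4.56 CPM. Among receptor tyrosine kinases 6 of 22 were higher and 3 lower (median 0.25). The EGF receptor gene Egfr measured 57.5 ± 4.17 CPM in Scramble, against 100.4 ± 8.39 CPM in JAG2KO, or 0.80 ± 0.08 as log2 fold change and SE (edgeR adjusted p = 2.40e-05). Pdgfrb, which is also on the pericyte list, rose by 0.82 on the log2 scale, and the TAM receptor gene Tyro3 fell by 0.96. Kdr, called higher, is also on the endothelial list.

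For the next 2 lists too, the shares over all tested genes were 11.8% higher and 12.5% lower. Among exchange factors, adaptors and GTPase-activating proteins of RAS, 6 of 19 tested genes were higher and 0 lower by edgeR (median 0.01). The lower count was also 0 at an unadjusted p under 0.05 in that fit, and at an adjusted p under 0.05 by DESeq2 and limma-voom. It did not stay at 0 in every setting. Without JagKO3 it was 1 at an adjusted and 2 at an unadjusted p under 0.05 by edgeR. By limma-voom it was 1 at an unadjusted p under 0.05. The GTPase activator genes Rasa2 and Rasal2 rose from 60.1 ± 2.30 to 77.5 ± 2.59 CPM and from 41.2 ± 1.19 to 54.9 ± 6.65 CPM. The docking protein gene Gab2 measured 15.3 ± 1.19 CPM in Scramble, against 21.8 ± 0.463 CPM in JAG2KO. In the core of RAS, RAF, MEK and ERK, 2 of 18 genes were higher, 3 lower and 13 not called (median 0.01). Map2k1, which encodes MEK1, measured 194.7 ± 2.14 CPM in Scramble, against 142.9 ± 10.3 CPM in JAG2KO, and the scaffold gene Ksr1 rose from 23.2 ± 1.04 to 35.9 ± 1.74 CPM. Hras fell from 47.3 ± 5.85 to 33.3 ± 2.77 CPM.

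Other genes with feedback roles were called in both directions, where over all tested genes 11.8% were higher and 12.5% lower. Of the 9 tested relatives in the Dusp, Spry, Spred and Etv families 3 were higher and 3 lower (median 0.25), where Spry3 was not analysed here. Dusp2, a nuclear phosphatase gene, rose from 20.6 ± 5.75 to 47.7 ± 15.4 CPM, and Dusp16, whose product acts mainly on JNK and p38, from 20.2 ± 1.18 to 28.5 ± 4.49 CPM. Dusp9, a close relative of Dusp6, fell from 181.4 ± 6.005 to 147.5 ± 4.08 CPM. Among 12 other inhibitors of receptor signalling 1 was higher and 2 lower (median 0.09). The docking protein gene Dok1, whose product recruits a GTPase activator of RAS, fell from 95.7 ± 6.19 to 53.1 ± 5.33 CPM (log2 fold change -0.85, SE 0.08, edgeR adjusted p = 2.26e-05). Lrig3 rose by 0.76, and the ubiquitin ligase gene Cblb fell by 0.39, a call lost when replicate 1 or 2 of Scramble was left out (adjusted p = 0.0502 and 0.0587). Among 15 tested genes that ERK is also known to induce, 1 was higher, 1 lower and 13 not called (median -0.05). Ier3 fell from 649.7 ± 54.9 to 412.3 ± 110.6 CPM. Phlda1 rose by 0.42, a call that was lost without JagKO3, JagKO4 or any 1 of the Scramble libraries (adjusted p = 0.055 to 0.151). Differences between these lists were not tested.

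**Figure D5:**
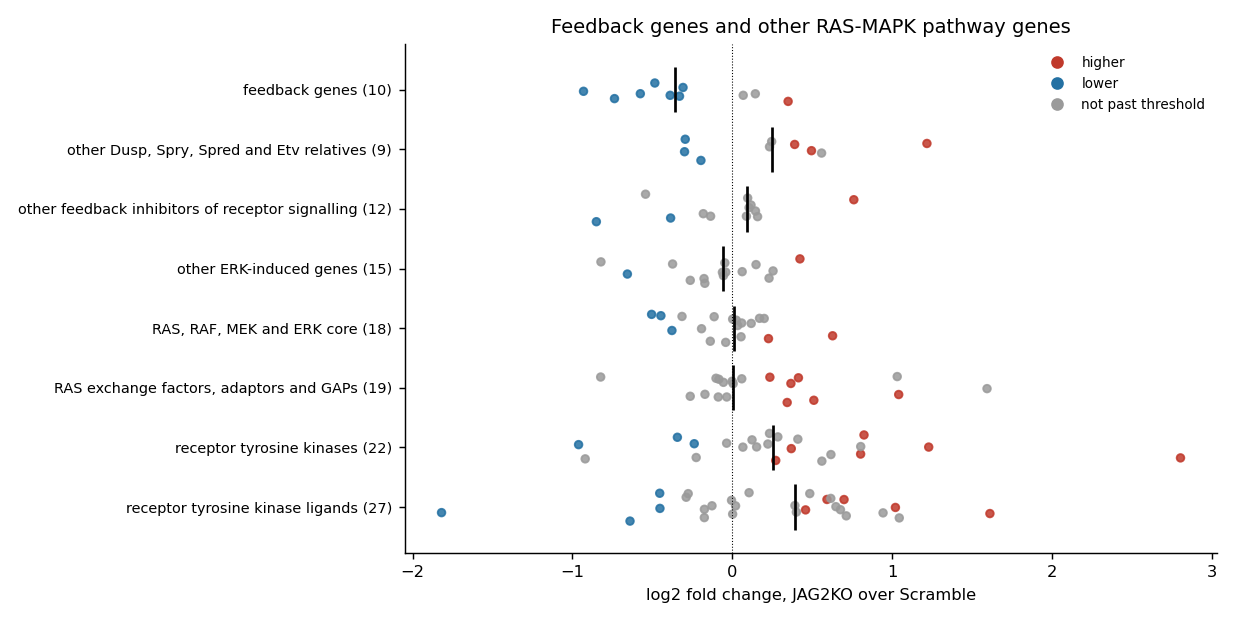
Log2 fold change of every tested gene in the feedback group and in 7 other RAS-MAPK lists, with the number tested in brackets and the median as a black line. The feedback genes have a median of -0.36, and the medians of the other lists run from -0.05 to 0.39.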

How the data were processed

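Lewis lung carcinoma cells sorted from tumours were profiled by polyA RNA-seq in 3 Scramble and 3 JAG2KO libraries. The authors deposited 1 table of raw counts per gene, made with STAR 2.7.7a and HTSeq 0.11.2 per the submitters' processing notes. Genome build, annotation, strand setting and filters were not given in the sources used here. Gene positions and lengths were matched by ID to GENCODE M21. The JAG2KO columns are numbered differently from the sample titles, so they were used as replicates of the group with no number. Genes with enough counts (filterByExpr, minimum count 10, minimum total 15) were tested with edgeR 4.0.16 in R 4.3.3 by the quasi-likelihood test with TMM factors and Benjamini-Hochberg adjustment over 16049 genes, at 0.05. Standard errors were derived from the fold change and its F statistic. Alternatives were DESeq2 1.42.0, limma-voom (limma 3.58.1), other scaling, filters and pseudocounts, and leaving out each library. Libraries held 37036772 to 43923565 counts. Intervals cover the spread between libraries, moderated across genes, and the floor of 3 counts covers counting error only. The scripts were tested on simulated data. The genes named were all 10 feedback genes, Jag2, and up to 3 called genes of smallest p per other list at a mean of at least 1 CPM. Kdr and the marker genes Ptprc, Eng and Col3a1 were named in addition, after their values were seen. A result on 1 gene of the wider lists is not reported here. The feedback genes and all lists were chosen with earlier results of these data known.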

Additional observations from a re-analysis of the deposited data

How the results depend on the processing

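The 7 lower and 1 higher calls among the feedback genes were counted alike under DESeq2, limma-voom, a CPM filter, no filter, library totals alone and RLE factors. Leaving out 1 library gave 5 to 7 lower calls and 1 to 2 higher calls. The count of 2 arose without JagKO2, when Dusp5 was called higher (log2 fold change 0.37). Without JagKO3 the log2 fold change of Dusp5 reversed to -0.037, and the cause was not tested. Among the other RAS-MAPK genes 10 to 18 were lower when 1 library was left out, against 16 with all, and the fits had fewer samples. Calls over all genes ran from 2705 without Scramble replicate 2 to 4388 with no filter, against 3896. No pair of relatives changed direction under another pseudocount, scaling or set of libraries. No paired analysis was possible because the JAG2KO columns carry no replicate number that matches the sample titles. With 3 libraries per group the permutation tests cannot go below 0.1, and depth does not limit the feedback genes, which had at least 409 counts in every library.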
